A study of Mus musculus with 79 samples.

Results

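The 9 adipokine genes described here are Lep (leptin), Adipoq (adiponectin), Retn (resistin), Cfd (adipsin), Rbp4 (retinol binding protein), Apln (apelin), Nampt (visfatin), Nrg4 (neuregulin) and Agt (angiotensinogen). They were chosen by gene symbol from the 39063 genes with a numeric gene ID in the deposited tables, and all 9 were among the 14873 genes tested. The study asked how leptin acting in the brain changes fat stores, including the stable fat of the tail. Mice aged 4 to 5 months by the sample labels received PBS or leptin at 100 ng per h into the cerebral ventricle (ICV) from osmotic pumps for 9 days, with the PBS mice pair fed. The paper gives a wider age range for the sequenced mice. RNA of bulk tissue was sequenced in 79 libraries from 51 mice, of which 18 were female and 33 were male.

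The mice were BMAd-Pnpla2-/- (KO), in which the lipolytic enzyme ATGL is lost from bone marrow adipocytes, or BMAd-Pnpla2+/+ (WT), both of a mixed SJL and C57BL6 background. Caudal vertebrae (CV), which are rich in marrow fat, came from all 51 mice. Female CV comprised 5 WT mice with PBS, 5 WT mice with leptin, 4 KO mice with PBS and 4 KO mice with leptin. Male CV comprised 5 WT mice with PBS, 8 WT mice with leptin, 5 KO mice with PBS and 4 KO mice with leptin. A further 5 male WT mice with PBS and 6 with leptin carried subcutaneous insulin pellets for the same 9 days. For its mice with insulin pellets the paper gives an older age range than the labels do. Lumbar vertebrae (LV), which hold little fat, came from the 18 females, and inguinal white adipose tissue (iWAT) from the 10 female WT mice. Same-numbered CV, LV and iWAT libraries of a female group came from 1 mouse. The KO deletes Pnpla2 in marrow adipocytes alone, and each library held many cell types, so that fewer adipocytes and less RNA per adipocyte cannot be told apart in any value given here.

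Adipokines are proteins that fat tissue secretes into the blood, and many of them report the state of the fat stores to other organs. Leptin acts on neurons of the hypothalamus to lower food intake, and its own gene is known to be turned down when fat stores are drawn on and turned up by insulin. The other members act on insulin sensitivity, complement, retinol transport, blood vessels or blood pressure, and several of them are made by cells other than adipocytes as well.

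Levels are given as deposited TPM, a level per transcript length that is scaled to the same total in each library. Differences are log2 fold changes from edgeR's quasi-likelihood test on counts, with their standard errors (SE) and Benjamini-Hochberg adjusted p-values over the 14873 genes. A gene was called changed where its adjusted p-value was under 0.05 and its log2 fold change was 0.5 or more in either direction. Total counts per library ranged from 16100377 to 19364106 in CV, from 17638318 to 19100698 in iWAT and from 28717516 to 29757254 in LV. Pnpla2 itself lay between 131 and 256 TPM in CV of female KO mice with PBS and between 217 and 288 TPM in WT, and between 135 and 209 TPM against 191 to 294 TPM in males, so the groups overlapped. The 10 adipocyte markers (Plin1, Plin4, Cidec, Fabp4, Aqp7, Pparg, Cebpa, Adrb3, Lipe and Acvr1c) summed to 39230 to 55780 TPM in iWAT, 6248 to 8163 TPM in CV and 284 to 459 TPM in LV of female WT mice with PBS.

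The proximal promoters of the 5 members whose response to leptin differed most in direction or size between the vertebrae and iWAT are shown, so that the sequence before each start can be read beside its response. Each run holds the 250 bases before the start site, 5′ to 3′ on the gene's strand, from RefSeq on GRCm38.p6. Capitals mark matches on either strand to 1 of the 6 motifs searched. Lep lies at chr6:29059971-29060220 (+), Rbp4 at chr19:38124812-38125061 (-), Cfd at chr10:79890603-79890852 (+), Agt at chr8:124569707-124569956 (-) and Apln at chrX:48034854-48035103 (-). RefSeq lists another start upstream for Rbp4, whose window held no match, and the start shown was chosen after its sequence was seen.
Lep: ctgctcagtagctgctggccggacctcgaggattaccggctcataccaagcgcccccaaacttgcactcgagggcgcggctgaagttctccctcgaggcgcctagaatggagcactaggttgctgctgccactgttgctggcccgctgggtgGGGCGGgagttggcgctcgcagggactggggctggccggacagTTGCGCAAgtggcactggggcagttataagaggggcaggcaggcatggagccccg
Rbp4: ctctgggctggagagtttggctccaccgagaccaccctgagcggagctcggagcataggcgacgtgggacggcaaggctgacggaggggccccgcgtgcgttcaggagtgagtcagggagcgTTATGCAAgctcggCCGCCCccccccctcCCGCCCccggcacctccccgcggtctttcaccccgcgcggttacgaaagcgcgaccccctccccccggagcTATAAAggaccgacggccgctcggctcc
Cfd: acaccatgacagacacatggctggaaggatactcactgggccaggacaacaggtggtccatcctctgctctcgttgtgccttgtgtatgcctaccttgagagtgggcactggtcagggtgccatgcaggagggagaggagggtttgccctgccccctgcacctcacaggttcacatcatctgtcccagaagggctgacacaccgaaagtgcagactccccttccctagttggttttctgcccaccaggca
Agt: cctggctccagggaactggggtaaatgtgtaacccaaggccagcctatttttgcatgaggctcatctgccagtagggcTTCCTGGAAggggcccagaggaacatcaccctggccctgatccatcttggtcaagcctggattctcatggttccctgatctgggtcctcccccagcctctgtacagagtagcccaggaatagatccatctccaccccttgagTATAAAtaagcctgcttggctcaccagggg
Apln: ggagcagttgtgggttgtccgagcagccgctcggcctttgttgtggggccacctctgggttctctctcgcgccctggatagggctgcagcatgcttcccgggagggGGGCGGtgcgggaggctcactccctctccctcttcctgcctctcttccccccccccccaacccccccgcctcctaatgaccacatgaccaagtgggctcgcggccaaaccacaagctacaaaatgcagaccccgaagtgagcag

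Matches were counted in windows from 250 bases before to 50 bases after the start of all 32851 RefSeq promoters. The TATA box (TATAAA) was found in 13.6% of them and the C/EBP motif (TTGCNNAA) in 10.8%. The Sp1 motif (GGGCGG) was found in 35.7% of the promoters. A STAT motif (TTCNNNGAA) was found in 8.3% and the E-box (CACGTG) in 7.15%. The PPAR/RXR motif, a direct repeat of AGGTCA with 1 base between the copies, was found in 0.0396%. The Lep promoter held an Sp1 match at position -98 and a C/EBP match at -55 from the start site. The Rbp4 promoter held a C/EBP match at -128, Sp1 matches at -114 and -99, and a TATA box at -28. Agt held a STAT match at -172 and a TATA box at -30, Apln held an Sp1 match at -144, and Cfd held no match. The matches did not overlap each other. Among all 10 listed promoters of the 9 members, 3 held the C/EBP match, 4 the Sp1 match, 2 the TATA box and 1 the STAT match.

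With PBS, the members fell into those with a steep order from iWAT to CV to LV and those without it. In iWAT against LV, edgeR called 7 members higher and Agt lower, and 66.6% of all tested genes were called in that comparison. For CV against LV the count was 7 members, all higher, beside a background of 66.6% of genes. In CV against iWAT, 6 members were lower, against 50.1% of genes. Since most genes differed between the tissues, the counts are not a result about adipokines.

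Lep had the steepest order toward LV, while Retn differed more between CV and iWAT. Female WT mice with PBS had 307, 314, 227, 190 and 365 TPM of Lep in iWAT, 37.0, 47.1, 28.9, 18.8 and 45.5 in CV and 0.14, 0.17, 0.08, 0.11 and 0.27 in LV. The tissues did not overlap. The log2 fold change was -3.18 ± 0.12 (SE) for CV against iWAT (adjusted p = 1.23e-06) and 6.72 ± 0.17 for CV against LV (adjusted p = 1.86e-08).

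Adipoq, which raises insulin sensitivity, differed in CV by -2.85 ± 0.34 log2 units from iWAT and by 4.76 ± 0.15 from LV. Retn, an adipocyte product in mice that opposes insulin action, differed by -4.08 ± 0.21 from iWAT and by 4.47 ± 0.45 from LV. Cfd, the protease that starts the alternative complement pathway, differed by -2.95 ± 0.23 and 5.29 ± 0.51. Rbp4, the carrier of retinol in blood, differed by -2.35 ± 0.17 and 3.39 ± 0.16. Nrg4, a ligand of ErbB receptors, differed by -3.11 ± 0.38 from iWAT and by 1.14 ± 0.25 from LV. All of these log2 fold changes passed edgeR's test. Scaled to the adipocyte markers, which moved the median of all genes by 3.11 in CV against iWAT, the log2 fold changes were -0.06 for Lep, 0.26 for Adipoq, 0.17 for Cfd, -0.03 for Nrg4, -0.97 for Retn and 0.77 for Rbp4, all below the shifted median, and 97.4% of all genes were called on that scale.

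Apln, the ligand of the apelin receptor on vessels, stood apart from them. It was 3.20 ± 0.14 higher in CV than in LV but did not pass the test between CV and iWAT (log2 fold change 0.30 ± 0.26, adjusted p = 0.331). Nampt, an enzyme of NAD synthesis that is also found outside cells, passed in none of the 3 tissue comparisons, with log2 fold changes from -0.03 to 0.23. Agt, the precursor of angiotensin, was lower in iWAT than in LV by edgeR (-0.60 ± 0.20, adjusted p = 0.0208) and did not pass in CV against either tissue. Its mean TPM was higher in iWAT (17.2) than in LV (13.1). The tissue contrasts with LV depend on scaling: on the TPM scale with a pseudocount of 1 the median of all genes moved by 0.86 for CV against LV and by 0.73 for iWAT against LV. On that scale Agt differed from LV by 0.96 log2 units in CV and by 0.31 in iWAT. Nampt differed from LV by 1.25 in CV and by 1.12 in iWAT, and limma called both.

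**Figure D1:**
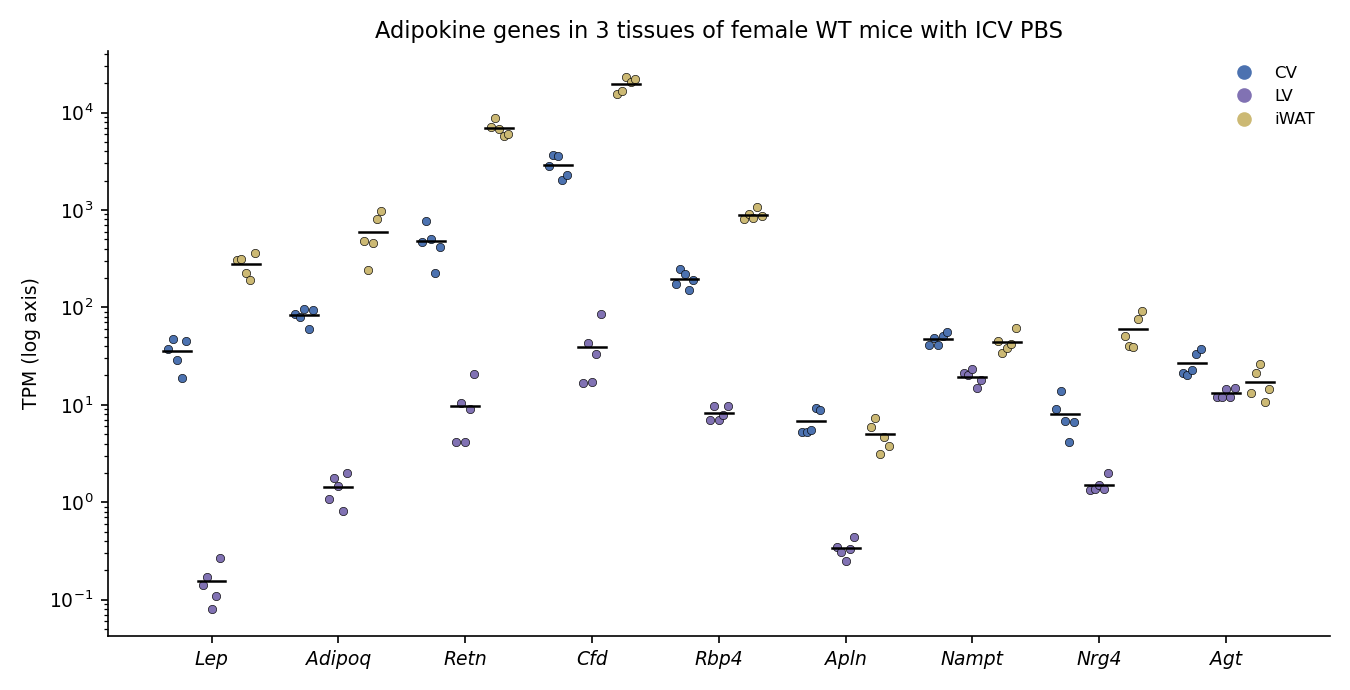
Levels of the 9 adipokine genes (TPM on a log axis) in iWAT, CV and LV of 5 female WT mice with PBS, where each point is 1 library. Lep ran from 190 to 365 TPM in iWAT, from 18.8 to 47.1 in CV and from 0.08 to 0.27 in LV, while Nampt ran from 14.8 to 61.0 TPM and Agt from 10.7 to 37.7 TPM over the 3 tissues.

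Lep fell with leptin in CV of both sexes and genotypes and in iWAT. In female WT CV, Lep was at 37.0, 47.1, 28.9, 18.8 and 45.5 TPM with PBS and at 0.25, 1.71, 0.03, 0.28 and 0.4 TPM with leptin. Every leptin library was below every PBS library. The log2 fold change was -5.96 ± 0.57 (SE), a 62.4-fold lower level (edgeR, adjusted p = 0.000407). Leptin replicate 2 set much of that size, and without it the log2 fold change was -7.22, or 149-fold lower.

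In male WT CV, Lep lay at 10.9, 23.9, 21.3, 5.04 and 20.3 TPM with PBS, and with leptin its lowest value was 0, its median 0.03 and its highest 0.2 TPM. It ranked first by p-value of all tested genes, with a log2 fold change of -8.05 ± 0.51 (edgeR, adjusted p = 1.17e-06). The leptin group rested on 0 to 8 counts per library, so the size of that fall is less certain than its direction.

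In KO mice the fall of Lep in CV was of the same kind. Female KO CV held 13.4, 12.3, 50.6 and 35.2 TPM with PBS and 0, 0.31, 0.15 and 0.08 TPM with leptin (log2 fold change -7.57 ± 0.70, adjusted p = 0.00937). Without leptin replicate 3 or 4 of that group, the adjusted p-value was 0.0544 or 0.0757. Male KO CV held 11.4, 10.8, 19.4, 11.6 and 23.5 TPM with PBS and 0.08, 0.21, 0.19 and 0.49 TPM with leptin (log2 fold change -5.95 ± 0.49, adjusted p = 0.00153). In both sexes the PBS and leptin groups were apart. Without leptin replicate 2 in females the log2 fold change of Lep was -8.21, and without leptin replicate 4 in males it was -6.57.

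In iWAT, Lep went from 307, 314, 227, 190 and 365 TPM with PBS to 0.16, 6, 0.28, 0.38 and 0.45 TPM with leptin. Its mean with leptin was 0.518% of that with PBS, compared with 1.51% in CV of the same mice, and 0.113% and 0.677% without leptin replicate 2, the highest library in both tissues. This was a log2 fold change of -7.54 ± 0.98 (edgeR, adjusted p = 0.000555), and of -9.64 without that replicate. In a test of the difference between the tissues, with mouse as a block, the fall was smaller in CV than in iWAT by 1.98 ± 0.38 log2 units (adjusted p = 0.00653), and without that block the difference of 1.61 was not called.

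Lumbar vertebrae held almost no Lep. All 9 leptin libraries were at 0 counts, and the PBS means were 15.4 counts in WT and 8.25 counts in KO. Against a limit of 3 counts per library, the PBS mean was 5.15-fold higher in WT and 2.69-fold higher in KO. In KO the PBS libraries held 1 to 14 counts, so their low end was below that limit. Neither difference between leptin and PBS passed edgeR's test after adjustment (adjusted p = 0.0559 and 0.452).

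**Figure D2:**
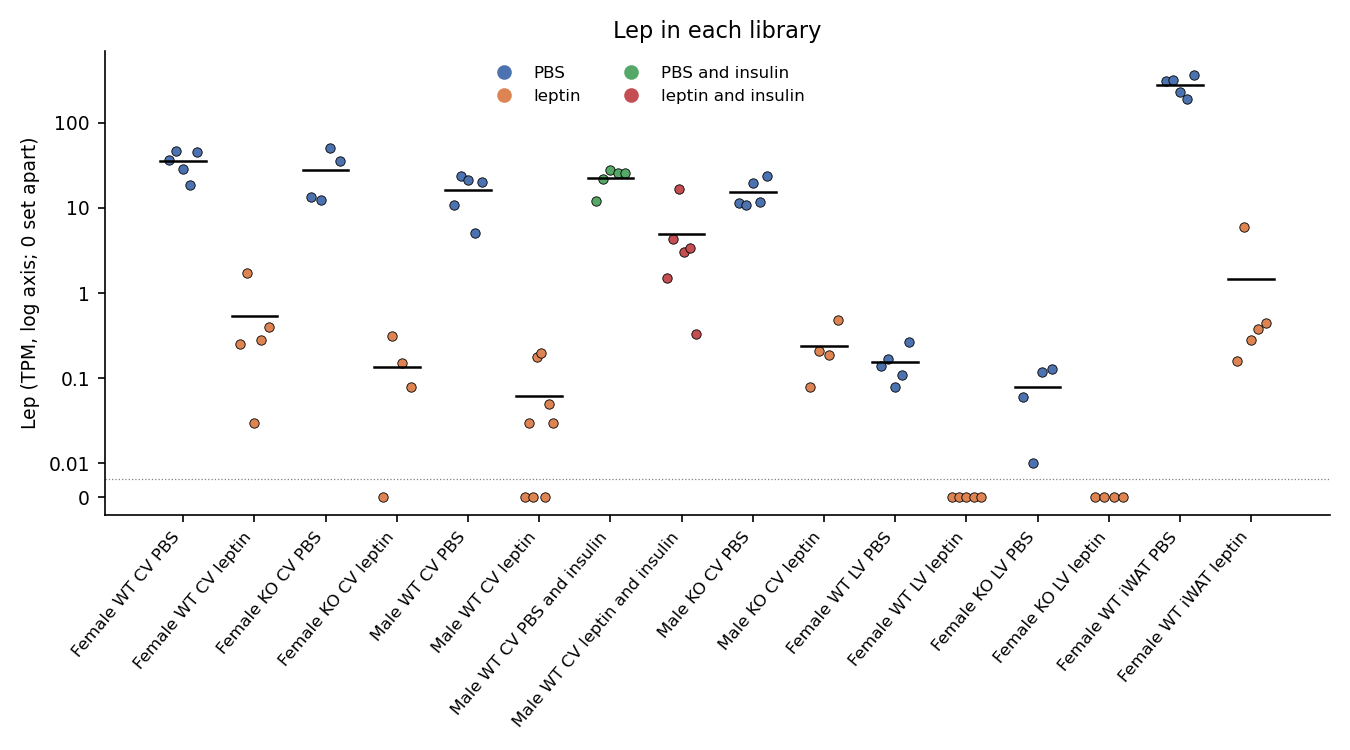
Lep level (TPM, log axis) in each of the 79 libraries by tissue, sex, genotype and treatment, with libraries at 0 drawn at the bottom of the axis. Leptin libraries without insulin lie below the PBS libraries of their group, and the 6 libraries of male WT CV with leptin and insulin lie between 0.33 and 16.8 TPM.

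The other adipokines followed Lep in CV to a smaller extent or not at all. In female WT CV, 4 of the 9 members were called, against 5.04% of all tested genes, with Lep, Adipoq and Rbp4 lower and Apln higher. Male WT CV had 3 of 9 members called, against 1.75% of genes, and these were Lep, Adipoq and Rbp4, all lower. In female KO CV and male KO CV only Lep was called, 1 of 9 in each, against 0.0269% and 0.188% of genes. In female KO CV the PBS and leptin groups did not overlap for Lep, Adipoq, Retn, Cfd and Nrg4, beside 5.02% of all genes. In male KO CV they did not overlap for Lep, Adipoq and Retn, beside 2.72% of all genes.

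Adipoq in female WT CV was at 84.7, 80.4, 97.3, 60.4 and 94.9 TPM with PBS and at 26.2, 48.2, 68.6, 48.3 and 40.3 TPM with leptin. The groups overlapped by 1 library on each side. The log2 fold change was -0.89 ± 0.22 (edgeR, adjusted p = 0.0309). In male WT CV, Adipoq had 37.4, 46.4, 52.7, 28.7 and 58.2 TPM with PBS and a range of 18.6 to 37.5 TPM around a median of 25.2 TPM with leptin, a log2 fold change of -0.84 ± 0.17 (adjusted p = 0.0143). The log2 fold changes were -1.51 ± 0.33 in female KO CV (adjusted p = 0.189) and -0.86 ± 0.20 in male KO CV (adjusted p = 0.121), which did not pass. Adipoq lay at 44.7 to 129.5 TPM with PBS and 13.2 to 40.3 TPM with leptin in female KO CV. In male KO CV it lay at 44.2 to 62.3 TPM with PBS and 24.2 to 37.1 TPM with leptin, and neither pair of groups overlapped.

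Rbp4 in female WT CV was at 175, 246, 221, 151 and 190 TPM with PBS and at 85.0, 140, 111, 128 and 120 TPM with leptin. Every leptin library was below every PBS library, and the log2 fold change was -0.78 ± 0.18 (edgeR, adjusted p = 0.0255). The 2 groups did not overlap for 6.56% of all tested genes. In male WT CV Rbp4 fell as well (log2 fold change -0.56 ± 0.14, adjusted p = 0.0379), and in KO CV its log2 fold change was -0.51 ± 0.24 in females and -0.56 ± 0.22 in males, neither past the test (adjusted p = 0.456 and 0.415).

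The calls of Adipoq and Rbp4 in CV were less stable than that of Lep. When each mouse was left out in turn, Lep was called in 10 of 10 fits in female WT CV, Adipoq in 4, Rbp4 in 6 and Apln in 2. Most adipocyte markers moved in the same direction. In female WT CV 4 of the 10 were called lower (Acvr1c, Lipe, Plin1 and Plin4), and 4 in male WT CV. The medians were -0.58 and -0.52 log2 units, against -0.01 and 0.00 for all genes. Adrb3 went the other way in female WT CV (0.79, edgeR, adjusted p = 0.258), and Pparg was at -0.07 there. With PBS, Adrb3 was also lower in CV than in LV (-1.405, edgeR, adjusted p = 0.00391). The summed level of the 10 markers went from 6248 to 8163 TPM with PBS to 3802 to 6482 TPM with leptin in females. It went from 4208 to 6776 TPM to 3715 to 6432 TPM in males.

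Scaled to those markers, which moved the median of all genes by 0.64 in females and 0.58 in males, Lep was still lower (log2 fold change -5.44 in females and -7.40 in males). Acvr1c, Lipe, Plin1 and Plin4, called lower with leptin, are part of that scale, so it cannot separate fewer adipocytes from less RNA per adipocyte. On that scale 64.7% and 64.4% of all genes were called. Adipoq was then at -0.30 and -0.21 (adjusted p = 0.199 and 0.218). Rbp4 was at -0.15 in females (adjusted p = 0.494) and 0.06 in males (adjusted p = 0.683). Erythroid markers also differed, with 3 of 4 called higher in CV of both sexes and summed levels of 1993 to 5898 TPM with PBS against 5060 to 21530 TPM with leptin in females. Of 5 macrophage markers 2 (Cd68 and Mrc1) were called higher in female WT CV, where their sums were 607 to 791 TPM with PBS and 820 to 1082 TPM with leptin, and none in male WT CV, with medians of 565 and 810 TPM. Of 6 osteoblast and osteocyte markers 2 (Col1a1 and Sp7) were called higher in female WT CV, with median sums of 5131 and 13780 TPM. None was called in male WT CV, where the median sums were 2079 TPM with PBS and 1284 TPM with leptin. The 6 skeletal muscle markers had none called and summed to 16460 to 36930 TPM with PBS and 13260 to 32670 TPM with leptin in females. Median muscle sums were 35750 TPM with PBS and 13580 TPM with leptin in females, and 42090 and 28280 TPM in males. In KO CV no adipocyte marker was called, with medians of -0.997 in females and -0.46 in males. The part of these cells in the changes of the adipokines was not tested.

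Retn did not pass the test in any leptin comparison, although its log2 fold change was below 0 in all 8. In male WT CV it had 229, 381, 605, 251 and 462 TPM with PBS and 162.7 to 327 TPM, with a median of 225 TPM, with leptin (log2 fold change -0.76 ± 0.22, adjusted p = 0.0773). In female KO CV it was at 406, 268, 449 and 416 TPM with PBS and 160, 195, 203 and 202 TPM with leptin. Those groups were apart, yet the log2 fold change of -0.88 ± 0.18 had an adjusted p-value of 0.161. Cfd in CV ranged from -0.46 to -0.26 log2 units over the 5 CV comparisons of leptin with PBS and passed in none. Nrg4 ranged from -0.92 to -0.30 over the same comparisons, with adjusted p-values of 0.143 or above.

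Apln and Agt did not follow Lep in CV. Apln in female WT CV was at 5.24, 5.21, 5.56, 9.21 and 8.78 TPM with PBS and at 12.8, 6.5, 11.5, 20.4 and 11.6 TPM with leptin, with 1 leptin library inside the PBS range. It rose by 0.84 ± 0.23 log2 units (edgeR, adjusted p = 0.0448). Its log2 fold change did not pass elsewhere in CV, being 0.42 ± 0.23 in male WT CV (adjusted p = 0.337), -0.28 ± 0.24 in female KO CV (adjusted p = 0.659) and 0.18 ± 0.20 in male KO CV (adjusted p = 0.840). The log2 fold change of Agt was 0.54 ± 0.22 in female WT CV (adjusted p = 0.156) and 0.46 ± 0.14 in male WT CV (adjusted p = 0.0984), neither of which passed.

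Nampt did not pass the test in CV, with log2 fold changes between -0.10 and 0.28 over the 5 CV comparisons. In female WT CV its level was 40.7 to 55.8 TPM with PBS and 38.4 to 53.6 TPM with leptin.

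**Figure D3:**
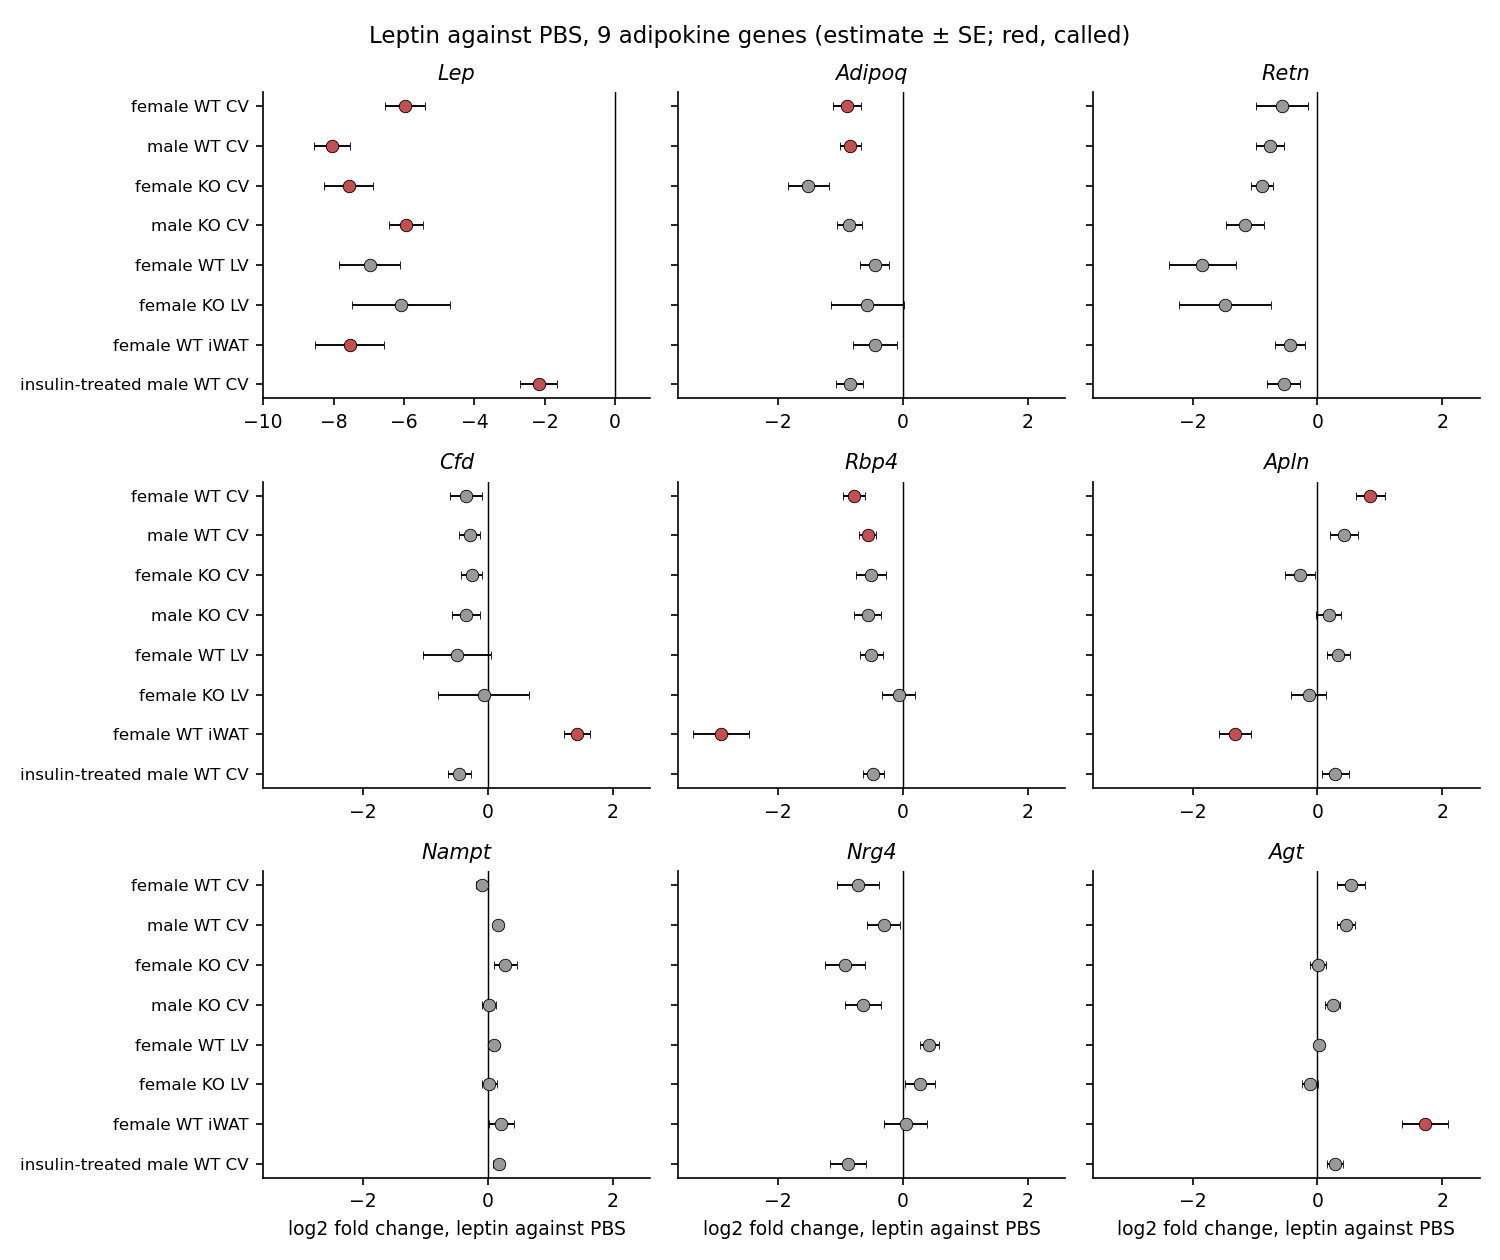
Log2 fold change of leptin against PBS (edgeR, points with SE bars) for each adipokine gene in the 8 leptin comparisons. Lep lies between -8.05 and -2.17, far below the other members, and Rbp4 in iWAT at -2.91 is the lowest value of the others.

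In iWAT the response was split. There 5 of 9 members were called, against 15.1% of all tested genes, with Lep, Rbp4 and Apln lower and Cfd and Agt higher. All 5 were called in each of the 10 fits that left out 1 mouse. The PBS and leptin groups in iWAT did not overlap for 18.7% of all tested genes.

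Rbp4 in iWAT was at 800, 919, 824, 1068 and 865 TPM with PBS and at 41.9, 246, 55.2, 65.7 and 151 TPM with leptin. The groups were far apart, and the log2 fold change was -2.91 ± 0.45, a 7.53-fold lower level (edgeR, adjusted p = 0.00151). Apln in iWAT was at 5.93, 7.4, 3.15, 4.7 and 3.82 TPM with PBS and at 2.13, 1.74, 1.3, 1.92 and 2.3 TPM with leptin, again without overlap. It fell by 1.32 on the log2 scale (SE 0.25, adjusted p = 0.00419).

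Cfd moved the other way. It was at 15611, 16460, 22985, 20532 and 22194 TPM with PBS and at 38484, 44183, 58533, 42405 and 60362 TPM with leptin. Every leptin library was above every PBS library, and the log2 fold change was 1.42 ± 0.21 (edgeR, adjusted p = 0.00120). Adipsin is among the most abundant transcripts of white fat, and Cfd took 0.650% to 1.00% of all counts of an iWAT library with PBS and 1.90% to 2.92% with leptin.

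Agt in iWAT was at 13.4, 21.2, 26.1, 10.7 and 14.5 TPM with PBS and at 40.7, 93.3, 72.6, 22.4 and 40.1 TPM with leptin. The lowest leptin library was within the PBS range. Agt rose by 1.73 ± 0.37 log2 units (edgeR, adjusted p = 0.00757).

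The remaining members did not pass in iWAT. Adipoq lay between 242 and 983 TPM with PBS and between 257 and 546 TPM with leptin (log2 fold change -0.44 ± 0.35, adjusted p = 0.369). Retn was at -0.44 ± 0.24 (adjusted p = 0.187), and at -0.65 (adjusted p = 0.0364) without leptin replicate 2. Nampt was at 0.22 ± 0.20 (adjusted p = 0.445) and Nrg4 at 0.05 ± 0.34 (adjusted p = 0.938).

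Cell type markers moved in iWAT too. Of the 10 adipocyte markers 6 were called lower (median -0.91 log2 units, 0.07 for all genes), while Cidec was at 0.72 (edgeR, adjusted p = 0.0918). The sum of the 10 markers went from 39230 to 55780 TPM to 13300 to 31440 TPM, without overlap. Of the 4 erythroid markers 3 were called lower, with sums of 2343 to 3197 TPM and 257 to 1328 TPM. Scaling to the adipocyte markers moved the median of all genes by 0.93, and that scale rests in part on the 6 markers called lower. Lep (-7.04) and Rbp4 (-2.21) were then still called lower, Cfd was at 2.33 and Agt at 2.47, and Apln was at -0.42 (adjusted p = 0.299). On that scale 78% of all genes were called. The part of these cells in the adipokine changes was not tested.

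Numbers given to the mice form several series, and the female WT mice came from the 100s and the 600s. Within the 100s and the 600s the log2 differences in iWAT were -7.80 and -9.15 for Lep, -3.06 and -3.55 for Rbp4, 1.19 and 1.32 for Cfd, 1.66 and 1.68 for Agt and -1.38 and -1.20 for Apln. In female WT CV they were -5.54 and -6.66 for Lep, -1.29 and -0.57 for Adipoq, -0.96 and -0.50 for Rbp4 and 0.76 and 0.63 for Apln. Male WT CV gave -6.79 and -6.36 for Lep, -0.73 and -0.85 for Adipoq and -0.43 and -0.55 for Rbp4. Each of these kept its direction in both series.

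The response of 4 of the 9 members differed between CV and iWAT of the same mice, against 11.6% of all tested genes called for this difference. These were Lep, described above, and Rbp4, Cfd and Apln. Rbp4 fell less in CV than in iWAT, by 2.46 ± 0.35 log2 units (adjusted p = 0.00161). The log2 fold change of Cfd in CV was below that in iWAT, with a difference of -1.75 ± 0.33 (adjusted p = 0.00636). Apln, which was higher with leptin in female WT CV and lower in iWAT, differed by 2.14 ± 0.35 (adjusted p = 0.00321). Agt differed by -1.10 ± 0.35 and did not pass (adjusted p = 0.0558). In the same mice, leptin replicate 2 held the highest Lep, Retn, Rbp4 and Agt of the leptin group in both CV and iWAT.

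**Figure D4:**
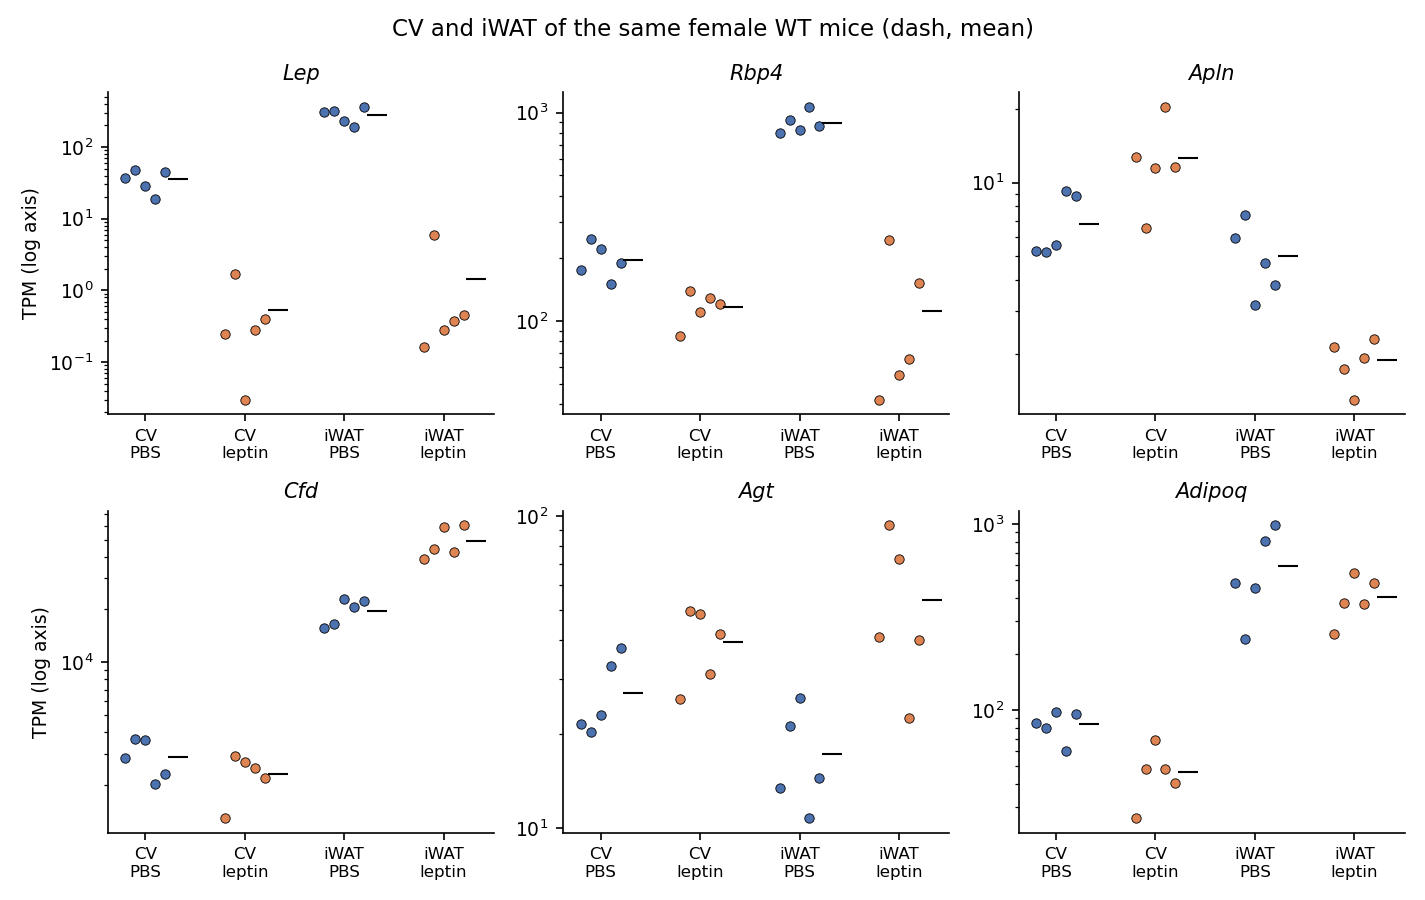
Levels (TPM, log axes) of adipokine genes in CV and iWAT of the same 10 female WT mice, 5 with PBS and 5 with leptin, where each point is 1 mouse. Rbp4 dropped to 41.9 to 246 TPM in iWAT with leptin and lay at 85.0 to 140 TPM in CV, and Cfd lay at 38484 to 60362 TPM in iWAT and 1298 to 2942 TPM in CV.

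In LV none of the 9 members was called with leptin in WT or KO females, where 0% and 0% of all genes were called by edgeR. At an unadjusted p-value of edgeR below 0.05 were 4 members in WT LV (Lep, Retn, Rbp4 and Nrg4), beside 14.7% of all genes. In KO LV there was 1 (Lep), near the 8.95% of all genes there. DESeq2 called 1 member in each genotype. Retn in WT LV was at 4.2, 10.4, 4.14, 9.12 and 20.6 TPM with PBS and at 3.02, 1.83, 1.07, 2.33 and 6.16 TPM with leptin, overlapping (log2 fold change -1.84 ± 0.53, adjusted p = 0.169). Nrg4 in WT LV was at 1.32 to 1.98 TPM with PBS and 1.85 to 2.59 TPM with leptin (0.43 ± 0.15, adjusted p = 0.229). For the difference between CV and LV in the response, edgeR called 2.1% of all genes and no member. Its unadjusted p-value was below 0.05 for 2 members (Nrg4 and Agt), beside 15.9% of all genes. DESeq2 called none and limma 1.

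Insulin was tested in CV of male WT mice. The 11 mice with insulin all came from the 300s and 400s of the mouse numbers, a pair of series with no mouse without insulin, so that insulin and series cannot be told apart. With PBS, insulin against no insulin gave no called member, with 0% of all genes called by edgeR, and no member at an unadjusted p-value below 0.05 or called by DESeq2 or limma. Lep was at 10.9, 23.9, 21.3, 5.04 and 20.3 TPM without and at 11.9, 22.1, 27.7, 26.0 and 25.5 TPM with insulin (log2 fold change 0.38 ± 0.52, adjusted p = 0.937).

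With leptin, Lep was higher in mice with insulin than without. Lep was at 0 to 0.2 TPM in the 8 mice with leptin alone, and at 0.33, 1.51, 3.02, 3.36, 4.33 and 16.8 TPM in the 6 mice with leptin and insulin. The groups did not overlap. Lep was higher with insulin by 6.26 ± 0.82 log2 units (edgeR, adjusted p = 0.000460), the second lowest p-value of all tested genes, and Lep was called in all 14 fits that left out 1 mouse, with 5.32 as the log2 fold change without leptin and insulin replicate 3. It was the 1 member called, against 0.363% of all genes. The other 8 members had log2 fold changes from -0.60 for Nrg4 to 0.43 for Adipoq, with adjusted p-values of 0.263 and 0.276 for these.

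Among mice with insulin, leptin still lowered Lep, and here 1 of 9 members was called against 0.558% of all genes. It had a log2 fold change of -2.17 ± 0.52 (edgeR, adjusted p = 0.0433), and the mean with leptin was 21.6% of that with PBS, or 11.1% without replicate 3. The highest leptin library, replicate 3 at 16.8 TPM, was inside the PBS range of 11.9 to 27.7 TPM. Within the 300s, which held all 5 PBS mice and 3 of the 6 leptin mice, the log2 difference of Lep was -2.14. Without replicate 3 the log2 fold change was -3.11 (adjusted p = 0.000632), and in each of the 10 other fits that left out 1 mouse the adjusted p-value was between 0.0605 and 0.106. Adipoq was at -0.85 ± 0.22 (adjusted p = 0.0621) and Rbp4 at -0.47 ± 0.17 (adjusted p = 0.163). Among the markers, 1 of 10 adipocyte markers was called lower and 3 of 4 erythroid markers higher in this comparison, with erythroid sums of 1087 to 4461 TPM with PBS and 5033 to 13870 TPM with leptin, and their part in the result was not tested.

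Leptin with insulin against PBS alone gave no called member by edgeR, against 1.1% of all genes. Its unadjusted p-value was below 0.05 for 6 members, beside 17.2% of all genes. DESeq2 called none and limma 1 with a pseudocount of 1. Lep was at -1.79 ± 0.52 (adjusted p = 0.0711), and at -2.73 (adjusted p = 0.00296) without replicate 3. The mean Lep level was 4.89 TPM with both agents and 16.3 TPM with PBS alone. Agt was at 0.43 ± 0.13 (adjusted p = 0.0740). The test of whether insulin changed the leptin response gave no call among 0% of all genes called, but Lep had the lowest p-value of all 14873 genes, with a difference of 5.88 ± 1.05 log2 units (unadjusted p-value of edgeR 8.348e-06, adjusted p = 0.124). No other member had an unadjusted p-value below 0.05, and DESeq2 and limma called none.

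**Figure D5:**
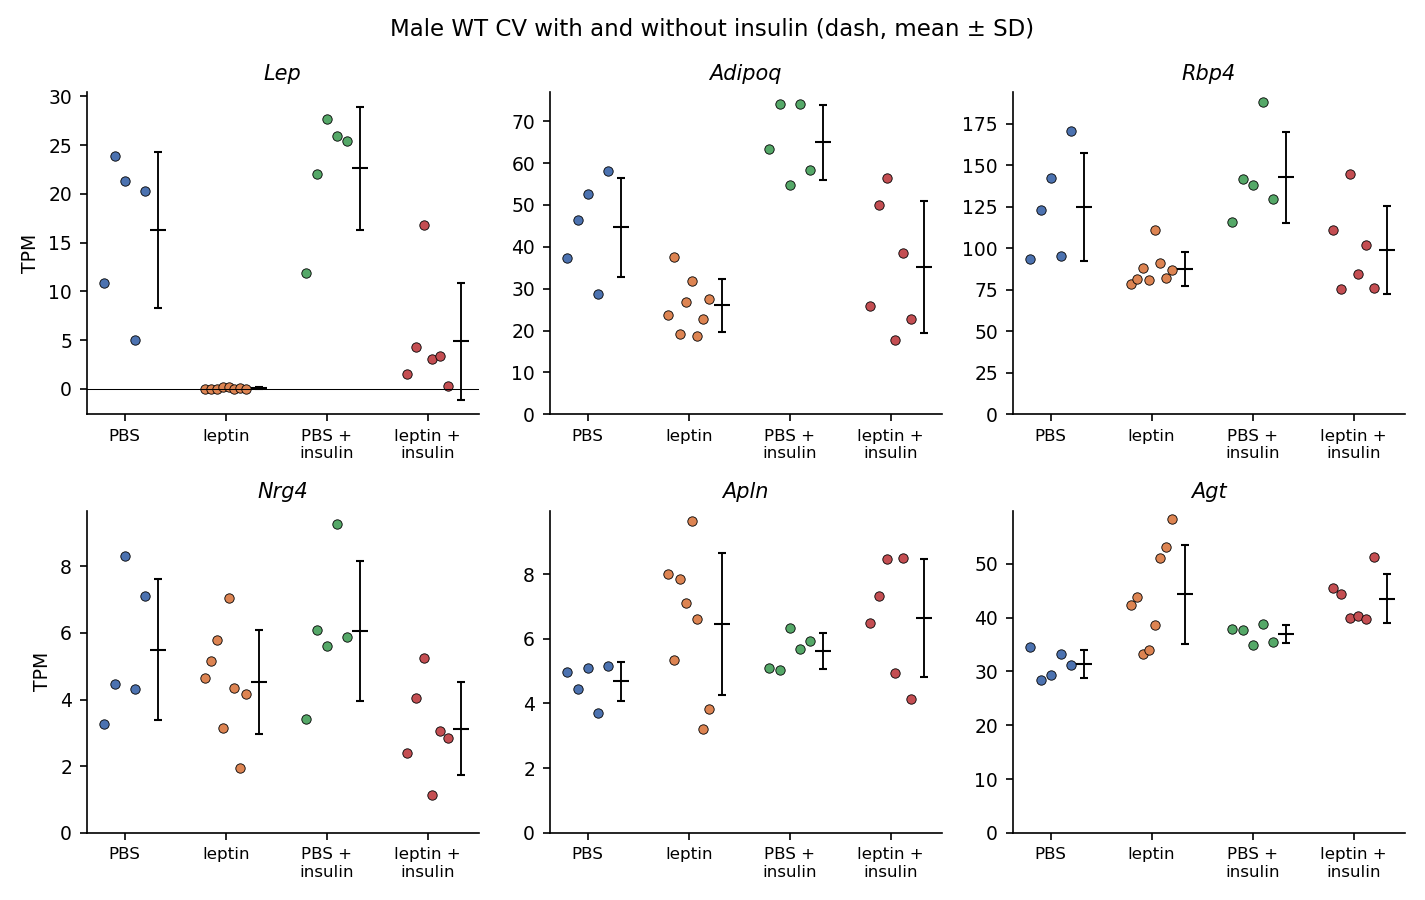
Levels (TPM) of adipokine genes in CV of male WT mice with PBS, leptin, PBS and insulin, and leptin and insulin, where each point is 1 mouse. Lep lies at 0 to 0.2 TPM with leptin alone and at 0.33 to 16.8 TPM with leptin and insulin.

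No member was called between the genotypes. With PBS, KO against WT gave no called member in female CV, male CV or female LV, where 0%, 0% and 0% of all genes were called by edgeR. In female CV the unadjusted p-value was below 0.05 for 2 members, beside 9.92% of all genes. These were Nampt (-0.34 ± 0.10, adjusted p = 0.358) and Agt (0.45 ± 0.16, adjusted p = 0.423). None was below it in the other comparisons, and DESeq2 and limma called none. Female against male WT CV with PBS gave 1 of 9 members, Adipoq, which was higher in females by 0.66 ± 0.18 log2 units (adjusted p = 0.0195), against 7.96% of all genes. Limma on TPM called 3 members there, and the share of all genes that it called is not given here. Lep was at 0.89 ± 0.36 (adjusted p = 0.0912), and Agt at -0.46 ± 0.14 (adjusted p = 0.0284) was short of the fold threshold.

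The leptin response did not differ detectably by sex or genotype for any member. The interaction with sex gave 0% of genes and no member by edgeR, DESeq2 or limma, and none at an unadjusted p-value below 0.05. The interaction with genotype gave 0% of genes in females and 0% in males, and no member by any of the tools. An unadjusted p-value below 0.05 was seen for 1 member in each, Apln in females (-1.14 ± 0.36, adjusted p = 0.731) and Lep in males (2.10 ± 1.00, adjusted p = 1). Over all genes that share was 6.09% in females and 2.64% in males. With SEs of 1.00 to 1.19 log2 units for Lep in these interactions, the tests do not show that the responses were alike.

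Over the 16 group means of TPM, Spearman's rho with Lep was 0.942 for Rbp4, 0.896 for Adipoq, 0.861 for Retn, 0.833 for Cfd, 0.826 for Nrg4, 0.5 for Apln, 0.402 for Nampt and 0.212 for Agt. Over the 10 CV group means it was 0.939 for Adipoq, 0.927 for Rbp4, 0.867 for Nrg4, 0.794 for Retn, 0.77 for Cfd, 0.176 for Apln, -0.0788 for Nampt and -0.479 for Agt. These are descriptions, since the groups share tissue, adipocyte content and in part their mice. In the order of the 16 group means, neighbouring groups overlapped for 14 of 15 neighbours for Lep, and the exception was iWAT with PBS, which stood above all others. For Agt all 15 neighbours overlapped.

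The genes whose 16 group means were most alike to each member, by Spearman's rho, were Sucnr1 (0.961), Mgll (0.955) and Cdsn (0.949) for Lep. They were Acvr1c, Adora1 and Aoc3 for Adipoq (0.985 to 0.988), Fasn, Gpt and Pnpla3 for Retn (0.982), and Foxj1, Zfp72 and Ndufaf1 for Cfd (0.977 to 0.979). For Rbp4 they were Mtarc1, Cdsn and Trabd2b (0.968 to 0.974), and for Apln Nek9, Eif3c and Atmin (0.968 to 0.974). Nampt was most like Fam8a1, Inpp5f and Pde4d (0.927 to 0.962), Nrg4 like Nsdhl, Cyb5b and Dll4 (0.979 to 0.988) and Agt like Ddb2, Nr4a3 and Gpx3 (0.921 to 0.968). Cdsn was thus among the closest genes of both Lep and Rbp4.

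Other products of fat, secreted ones among them, were compared as a list of 40 genes, of which 37 were tested. In female WT CV 2 were called higher and 3 lower with leptin, with a median of -0.15 log2 units against -0.01 for all genes and 5.04% of all genes called. Sncg, a synuclein abundant in adipocytes that the study counts as an intracellular inhibitor of lipolysis, fell by 1.21 on the log2 scale (adjusted p = 0.00845). Fgf1, a growth factor, fell by 0.58 (adjusted p = 0.00406). C1qtnf6, a relative of adiponectin, was higher by 0.80 (adjusted p = 0.0462) and Metrnl, a hormone linked to thermogenesis, by 0.52 (adjusted p = 0.0162). In male WT CV only Sncg was called (-0.90, adjusted p = 0.00410), so no secreted product of the list was. In iWAT 2 were called higher and 3 lower, a share near the 15.1% of all genes called there, and these genes were chosen for naming after their values were seen. Complement C3 was at 1.21 (adjusted p = 0.00244) and Nmb at 0.73 (adjusted p = 0.0336), while Sncg was at -3.49 (adjusted p = 5.13e-06), Ccdc3 at -1.60 (adjusted p = 0.000174) and Lpl at -0.73 (adjusted p = 0.0237). In KO CV and in LV no gene of the list was called.

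Receptors of adipokines and related receptors formed a list of 16 genes, of which 14 were tested. In female WT CV, Aplnr, the apelin receptor, was higher by 1.04 log2 units (adjusted p = 0.0102) and Gpr1, a chemerin receptor, lower (-0.53, adjusted p = 0.0160). No receptor was called in male WT CV. In iWAT, also named after their values were seen, Lepr, the leptin receptor, was higher (1.01, adjusted p = 0.00204). Cmklr1 (-1.48, adjusted p = 0.000333) and Ltbr, a lymphotoxin receptor (-0.69, adjusted p = 0.000617), were lower there. These were 2 of 14 receptors in female WT CV and 3 of 14 in iWAT, beside 5.04% and 15.1% of all genes, and the iWAT share is near that background. Of 14 genes of the renin-angiotensin system, the pathway that starts with angiotensinogen, 11 were tested. None was called in CV, and in iWAT 2 were lower, Enpep (-1.30, adjusted p = 0.000508) and Ctsd (-1.24, adjusted p = 0.00237), also named after their values were seen and near the 15.1% of all genes called there.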

How the data were processed

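The 9 members were taken by gene symbol. The members and the gene lists were chosen with earlier results of these data known. The authors deposited estimated counts per gene and TPM values, made from oligo dT-enriched RNA with SOAPnuke, HISAT and Bowtie2 on GRCm38.p6, with the counting tool not given in the sources used here. The labels also list GRCm39. Estimated counts, of which 51 values in 6 genes were not whole, were rounded. Groups came from the sample labels. Counts were compared with edgeR 4.0.16 in R 4.3.3 (TMM normalization, quasi-likelihood test, Benjamini-Hochberg adjustment) over the 14873 genes whose mean reached 0.4 TPM. SE values were derived from the F statistic. Fits were made per sex, genotype and tissue, with 4 groups for an interaction, mouse as a block for tissue contrasts, and insulin groups joined with the other male WT mice. No 2 libraries of a group were copies of each other. The procedure was tested on simulated data.

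The named genes were all 9 members, the 3 genes most alike to each over the 16 group means, and at most 4 called genes per list with the largest change in female WT CV. Alternatives were DESeq2 1.42.0, RLE size factors, other filters, limma 3.58.1 on log2 TPM with a pseudocount of 1 or 0.1, no fold threshold, scaling to adipocyte markers, replicate numbers as a block, 1 fit of all CV groups, the mouse-number series as a covariate, no mouse block and leaving out each mouse. Counting error is small for the members other than Lep with leptin and in LV, where few counts limit the precision.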

Additional observations from a re-analysis of the deposited data

Results flagged for a closer look

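Of 144 sets of replicate values tested, 7 held a library far from the others of its group, where chance gives about 1 in 20. In female WT mice with leptin, replicate 2 held 1.71 TPM of Lep in CV (others 0.03 to 0.4 TPM) and 6 TPM of Lep in iWAT (others 0.16 to 0.45 TPM), and these are tissues of the same mouse. In male WT CV with leptin and insulin, Lep in replicate 3 was 16.78 TPM (others 0.33 to 4.33 TPM), the library that also held the highest Adipoq and Rbp4 of its group. Retn in replicate 1 of female KO CV with leptin was 159.6 TPM (others 195.4 to 202.7 TPM). Rbp4 in replicate 5 of male WT CV with leptin was 110.9 TPM (others 78.3 to 91.3 TPM). Nrg4 in replicate 5 of female WT LV with PBS was 1.98 TPM (others 1.32 to 1.51 TPM). Agt in replicate 3 of female KO CV with leptin was 28.74 TPM (others 36.97 to 37.85 TPM).

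The response to leptin differed between CV and iWAT of the same female WT mice for 4 members by a test of the difference itself. The differences, CV minus iWAT in log2 units, were 1.975 for Lep, -1.748 for Cfd, 2.464 for Rbp4 and 2.135 for Apln.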

How the results depend on the processing

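Of 378 counts of called members under an alternative, 335 were within 1.5 times the reported count, 18 were lower and 25 higher. Of 1211 log2 fold changes of members called in at least 1 setting, 1069 kept their direction and side of the threshold, 54 lost the call, 53 gained it and 35 changed sign. The cause was not tested. DESeq2 called 3 members in female KO CV and 3 in male KO CV, and 1 in WT LV and 1 in KO LV. One fit of all CV groups called 2 in female KO CV. Limma called 1 member in WT LV with a pseudocount of 0.1, 2 in insulin-treated CV and 1 for leptin and insulin against PBS with a pseudocount of 1, and with either pseudocount 3 between the sexes and 1 for the difference between CV and LV. With the mouse-number series as a covariate or no filter on low values, 1 member was called in WT LV, and with no fold threshold 2 between the sexes. The shares of all genes called under these settings and by limma are not given here, so these counts are not results about the members. Scaling to adipocyte markers called 5 members in female KO CV, 4 for leptin and insulin against PBS and 1 for the insulin interaction, where 82.5%, 17.2% and 0.00672% of all genes were called on that scale.

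Same-numbered leptin and PBS mice were no pairs: correlations of their deviations ran from -0.42 to 0.47, and no comparison had every pair over 0.1. With the replicate number as a block, 1 member (Lep) was called in male WT CV, 1 for leptin and insulin against PBS and 1 for the insulin interaction, the block left the other counts of members as reported, and the count over all genes in male WT CV went from 260 to 65.

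When each mouse was left out in turn, the counts of members were 1 to 4 in female WT CV, 2 to 4 in male WT CV, 0 to 1 in female KO CV, 5 to 6 in iWAT, 0 to 2 with insulin, 0 to 1 for leptin and insulin against PBS, and 1 to 2 between the sexes. The shares of all genes called in those fits, and with the block in the insulin comparisons, are not given here. These counts therefore describe stability only.

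Signs changed under scaling to adipocyte markers for Nampt (0.52) in female WT CV, Rbp4 (0.0632) in male WT CV, Cfd (0.64) and Apln (0.57) in female KO CV, Retn (0.34) in iWAT, and Adipoq (0.26), Cfd (0.17), Rbp4 (0.77) and Nampt (3.09) in CV against iWAT. With limma at a pseudocount of 0.1 or 1, signs changed for Agt in CV against LV (1.01 and 0.96), Agt in iWAT against LV (0.32 and 0.31), Nampt in CV against iWAT (0.13 and 0.13), Nrg4 in iWAT (-0.0957 and -0.0926), Agt in female KO CV (-0.0821 and -0.0800) and Lep in the difference between CV and LV (-4.98 and -4.38, and -0.43 with DESeq2). Agt in female KO CV was also at -0.00694 with a mean of at least 1 TPM, -0.0623 with the series as a covariate, -0.000477 with no filter, and -0.0958 to 0.0779 on leaving out a mouse. Nrg4 in iWAT was at -0.0531 with the series and at -0.128 to 0.225 on leaving out a mouse.

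With DESeq2, counts over all genes went from 4 to 219 in female KO CV, 28 to 214 in male KO CV, 260 to 464 in male WT CV, 83 to 229 with insulin, 54 to 174 for insulin with leptin, and 0 to 144 in WT LV and 72 in KO LV. One fit of all CV groups gave 507 in female KO CV, and scaling to adipocyte markers, which shifts all genes alike, gave 12271 in female KO CV, 9627 in female WT CV, 9585 in male WT CV, 11594 in iWAT, 219 in male KO CV and 298 with insulin. Precision was limited by depth for Lep with leptin, at 0 to 8 counts per library in male WT CV and 0 in LV.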
